A study of Arabidopsis thaliana with 12 samples.

Results

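The cytosolic chaperone genes described here are the 5 genes of cytosolic HSP70, the 4 genes of cytosolic HSP90 and the gene of HSP101 of Arabidopsis thaliana. They were chosen by their gene identifiers, matched after the gene model suffix was dropped, and are 10 of the 33602 genes in the count table. All 10 passed the filter on low counts in both kits. Seedlings were kept for 3 days at 4 °C and then grown for 6 days at about 21 °C with 16 h of light a day, on a medium that held 1% sucrose, and RNA was taken from their aerial parts. The labels name no heat treatment. There were 4 groups of 3 libraries: wild type (1171WTCol3 in the titles) and the mutant tfIIfα1 in a stranded mRNA kit, and wild type (WTCol0) and the mutant tfIIfα2 in a stranded total RNA kit with ribosomal RNA depletion. Both alleles lie in RAP74, the gene of the alpha subunit of TFIIF, which works with RNA polymerase II at the start of transcription. The labels do not describe the lesions, and nothing says that the 3 libraries of a group came from separate cultures, so p-values measure the spread between these libraries.

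HSP70 proteins bind and release unfolded stretches of other proteins in cycles of ATP use, helped by J-domain partners and by factors that exchange the nucleotide. HSP90 takes over clients at a later step, together with cochaperones, and HSP101 pulls proteins out of aggregates after heat. In plants, heat shock factors bind repeats of the block GAA and its complement near these genes. HSC70-1, HSC70-2, HSC70-3, HSP90-2, HSP90-3 and HSP90-4 are known as constitutive, while HSP70-4, HSP70-5, HSP90-1 and HSP101 are known for strong induction by heat.

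The mRNA libraries held 55915638 to 66711096 counts each and the total RNA libraries 33292996 to 37456773, of which plastid genes took 57.3% to 62.5%. In 2 tfIIfα1 libraries, called a and b, the column headers name the other allele. Their group rests on a header prefix that the mRNA titles share, and the deposited tfIIfα1 mean is a weighted sum that includes both. In those libraries 72.2% and 69.6% of the nonzero counts were even, against 57.6% to 61.5% in the other 4 mRNA libraries, so they stand apart. The transcript of RAP74 was at 21.3, 21.2 and 18.4 counts-per-million units (CPM) in the wild type and at 14.3, 16.5 and 15.9 in tfIIfα1, a log2 fold change of -0.38 ± 0.08 (SE, adjusted p = 0.00217). It was at 8.06, 7.58 and 8.06 CPM against 4.84, 6.03 and 5.78 in tfIIfα2, a log2 fold change of -0.51 ± 0.12 (adjusted p = 0.0659, and 0.0168 with the replicate number as a block). By its identifier, AT4G12610, RAP74 lies close before the chromosome 4 segment AT4G12640 to AT4G15550. The median log2 fold change there was -0.997 over 271 tested genes in tfIIfα1, and -0.03 over 240 in tfIIfα2. The part of this offset in the RAP74 values was not tested.

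Of the HSP70 genes, HSC70-1 (AT5G02500, named MED37E in the deposited table) lies at chr5:553745-556623 on the minus strand, and HSC70-2 (AT5G02490, MED37D) at chr5:550035-552827 on the same strand, 917 bases away. HSC70-3 (AT3G09440, HSP70-3 in the table) is at chr3:2902355-2905947, HSP70-4 (AT3G12580, MED37C) at chr3:3991117-3993886 and HSP70-5 (AT1G16030) at chr1:5501966-5504535, all on the minus strand. HSP90-4 (AT5G56000) at chr5:22677338-22680152 on the minus strand, HSP90-3 (AT5G56010) at chr5:22681238-22684252 and HSP90-2 (AT5G56030) at chr5:22686473-22689671, both on the plus strand, form a cluster with gaps of 1085 and 2220 bases. HSP90-1 (AT5G52640, HSP81-1) stands alone at chr5:21352557-21355147 on the plus strand, and HSP101 (AT1G74310, CLPB1) at chr1:27936508-27940369 on the minus strand. Positions are those of the RefSeq annotation of TAIR10.1, looked up by identifier.

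The coding sequences bear on how far the counts of sister genes can be told apart. Across 6 pairs of HSP90 genes the coding sequences were 75.7% to 95.4% identical, with the highest value between HSP90-3 and HSP90-4. Across 10 pairs of HSP70 genes identity ran from 73.0% (HSC70-1 and HSP70-5) to 86.9% (HSC70-1 and HSC70-2). Of all stretches of 50 bases in the transcripts, 18.8% of HSP90-2, 23.9% of HSP90-3 and 18.7% of HSP90-4 also occur in another member, against 0% in each of the other 7 genes. The 3 clustered HSP90 genes are thus reported with the limit that their reads could be split between them by the counting, which the sources used here do not describe. The following 60 bases, coding bases 557 to 616 of HSP90-3 and the aligned bases of the others, show this limit, with capitals where HSP90-1 differs.
HSP90-3: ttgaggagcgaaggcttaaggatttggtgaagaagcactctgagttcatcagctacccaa
HSP90-2: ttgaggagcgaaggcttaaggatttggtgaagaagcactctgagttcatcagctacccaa
HSP90-4: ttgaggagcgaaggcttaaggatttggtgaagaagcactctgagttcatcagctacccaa
HSP90-1: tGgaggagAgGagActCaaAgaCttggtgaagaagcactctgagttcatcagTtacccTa
The clustered genes are the same at every base of this stretch, and HSP90-1 differs at 9 of the 60. They are read, 5′ to 3′ on the coding strand, from chr5:22682368-22682427, chr5:22687890-22687949, chr5:22679086-22679145 and chr5:21353601-21353660 of TAIR10.1.

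The HSP70 genes are less alike, as the aligned coding bases 475 to 534 show, with capitals where a gene differs from HSC70-1.
HSC70-1: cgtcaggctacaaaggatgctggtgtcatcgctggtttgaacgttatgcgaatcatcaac
HSC70-2: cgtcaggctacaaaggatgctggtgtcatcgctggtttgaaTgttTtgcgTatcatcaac
HSC70-3: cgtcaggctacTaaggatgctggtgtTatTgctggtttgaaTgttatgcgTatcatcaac
HSP70-4: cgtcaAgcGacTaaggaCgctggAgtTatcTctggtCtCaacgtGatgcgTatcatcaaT
HSP70-5: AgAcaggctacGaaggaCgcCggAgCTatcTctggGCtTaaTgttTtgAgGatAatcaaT
HSC70-2 and HSC70-3 differ from HSC70-1 at 3 and 5 of these 60 bases, HSP70-4 at 12 and HSP70-5 at 18. The longest run of identical bases between any of HSC70-1, HSC70-2 and HSC70-3 was 41, under the 50 used above. They lie, in the order printed, at chr5:555477-555536, chr5:551724-551783, chr3:2904850-2904909, chr3:3992906-3992965 and chr1:5503796-5503855 on the minus strand of TAIR10.1.

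The heat shock element was searched on both strands as GAANNTTCNNGAA or TTCNNGAANNTTC, which holds 3 alternating blocks, and in its shorter form of 2 blocks, GAANNTTC or TTCNNGAA, which every longer match contains. Within 500 bases before the start codon, 5 of the 10 members held the longer form, against 1.2% of 26711 genes. The shorter form was found in 7 of 10 members, against 33.8% of genes. In the 300 bases before the annotated gene start, the window used first, only 1 of 10 members held the longer form, against 0.49% of genes, and 2 held the shorter one, against 19.2%. The matches are printed with 30 bases each, the element in capitals, because 5 of the 6 lie inside the annotated gene, upstream of the coding sequence.
HSC70-1: caaccatcGAACATTCTCGAAacattttaa
HSC70-2: taattacaGAACATTCTGGAAactcaagtc
HSC70-3, far site: atcgaaccGAACATTCTCGAAcctttttaa
HSC70-3, near site: gagccatcGAACCTTCTCGAAactcgagta
HSP70-4: ttactcgtGAACGTTCTCGAAagctctttg
HSP90-1: aacgaaaaGAACTTTCTGGAAttcgtttgc
The elements begin 240, 141, 282, 153, 177 and 295 bases before the start codon, in the order printed. HSP70-5 and HSP101 held the shorter form only, and HSP90-2, HSP90-3 and HSP90-4 held neither in this window. For HSP101 the window of 500 bases lies wholly inside the annotated gene and covers no base before the gene start. In the 300 bases before its gene start HSP101 held neither form. A match is a description of letters and not of binding. The sites are at chr5:556553-556582, chr5:552685-552714, chr3:2905893-2905922, chr3:2905764-2905793 and chr3:3993845-3993874 on the minus strand and chr5:21352254-21352283 on the plus strand of TAIR10.1.

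Levels differed among the members by more than 2 orders of magnitude. CPM divided by kilobases of exon (RPKM) put HSC70-1 first in every group, with 429, 442 and 444 in the wild-type mRNA libraries, which is rank 160 of 26712 nuclear protein-coding genes. In the same libraries HSP90-2 followed with 78.5, 72.6 and 78.9 RPKM, HSP90-3 with 73.7, 76.6 and 74.5, and HSC70-3 with 61.2, 62.5 and 59.3. HSP90-2 and HSP90-3 overlapped, while HSC70-3 stood below both in all 3 libraries.

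HSP90-4, the least abundant gene of the cluster, had 11.8 ± 0.91 RPKM (mean ± SD, n = 3) in the wild-type mRNA libraries, and HSC70-2 had 5.25 ± 0.68. HSP70-4 had 3.47 ± 1.14, HSP101 2.12 ± 0.21, HSP90-1 1.61 ± 0.58 and HSP70-5 0.987 ± 0.094. The 4 heat-inducible genes were thus the lowest in this group, and of neighbours in the order HSP101 overlapped with HSP90-1 and HSP90-1 with HSP70-5. The annotated model of HSP90-1 holds coding sequence only, so its level rests on a shorter length than the others.

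**Figure D1:**
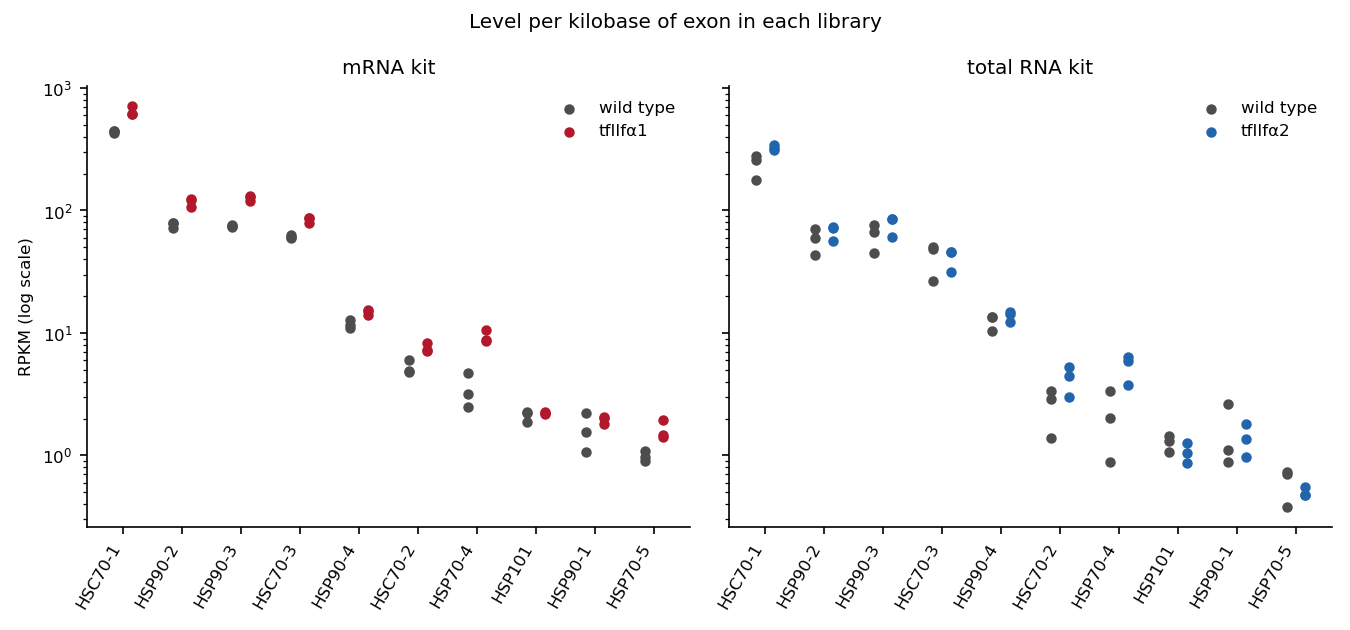
Level of each chaperone gene per kilobase of exon (RPKM, log scale) in the 12 libraries, with the mRNA kit on the left, the total RNA kit on the right and 1 point per library. HSC70-1 is highest in every library, and HSP101, HSP90-1 and HSP70-5 lie between 0.381 and 2.63 RPKM throughout.

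In the wild-type total RNA libraries the first 4 places were held by the same genes, with HSC70-1 at 259, 280 and 178 RPKM. HSC70-1 made up 56.7% of the summed RPKM of the 10 genes there and 64.8% in the wild-type mRNA libraries. HSP90-3 was at 75.95, 67.14 and 45.04 RPKM in total RNA, HSP90-2 at 70.06, 60.03 and 43.06 and HSC70-3 at 50.5, 48.2 and 26.6. The third library was the lowest for each of these genes, and the levels of all 3 genes overlapped. The RPKM of the kits cannot be set against each other directly, because plastid counts enter the total in one of them, and kit and wild-type line cannot be told apart.

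In tfIIfα1, 8 of the 10 chaperone genes rose against the wild type of the mRNA kit and none fell, where 18.7% of 20371 tested genes rose, 19.6% fell and so 38.4% passed the test in either direction. The rises were 1.26- to 2.69-fold, with HSP70-4 the highest. All 5 HSP70 genes and the 3 clustered HSP90 genes were among them, and HSP90-1 and HSP101 did not pass. The median log2 fold change of the 10 genes was 0.55, and that of all tested genes was -0.0022. In 8 of 10 genes the mutant libraries lay above all wild-type libraries, which held for 24.2% of all tested genes. Summed CPM over the 10 genes ran from 1773 to 1819 in the wild type and from 2538 to 2897 in tfIIfα1.

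HSC70-1, which supplies most of the cytosolic HSP70 transcript, was at 1096, 1128 and 1134 CPM in the wild type and at 1577 in tfIIfα1 replicate 1, 1582 in a and 1821 in b. The mutant libraries were all above the wild type. The log2 fold change was 0.57 ± 0.06 (SE, edgeR quasi-likelihood test, adjusted p = 7.58e-06), or 1.48-fold.

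HSC70-3, another constitutive HSP70, was at 197, 201 and 191 CPM in the wild type and at 254, 280 and 281 in tfIIfα1. The groups did not overlap, and the log2 fold change was 0.47 ± 0.06 (adjusted p = 3.31e-05). A gene on the opposite strand, AT3G09430, overlaps HSC70-3 and had a log2 fold change of -0.77 ± 0.20 (adjusted p = 0.00775), and since the strand setting of the counting is not given, reads of the pair may not be separated. HSC70-2, the weakly expressed neighbour of HSC70-1, was at 12.167, 12.002 and 15.001 CPM against 17.556, 20.744 and 18.024, again without overlap (0.52 ± 0.10, adjusted p = 0.000674).

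HSP70-4, the heat-inducible HSP70 that made up 0.51% of the summed RPKM in the wild type, was at 8.04, 6.28 and 11.9 CPM in the wild type and at 21.7, 26.6 and 22.2 in tfIIfα1. Every mutant library was above every wild-type library, and the wild-type libraries differed among themselves more than those of the constitutive genes. The log2 fold change of 1.43 ± 0.16 (adjusted p = 1.00e-05), or 2.69-fold, was exceeded by 1.23% of the tested genes. HSP70-5, the other heat-inducible HSP70, was at 2.80, 2.48 and 2.33 CPM against 3.763, 3.602 and 4.999 (0.70 ± 0.16, adjusted p = 0.00319), from 146 to 274 counts per library.

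**Figure D2:**
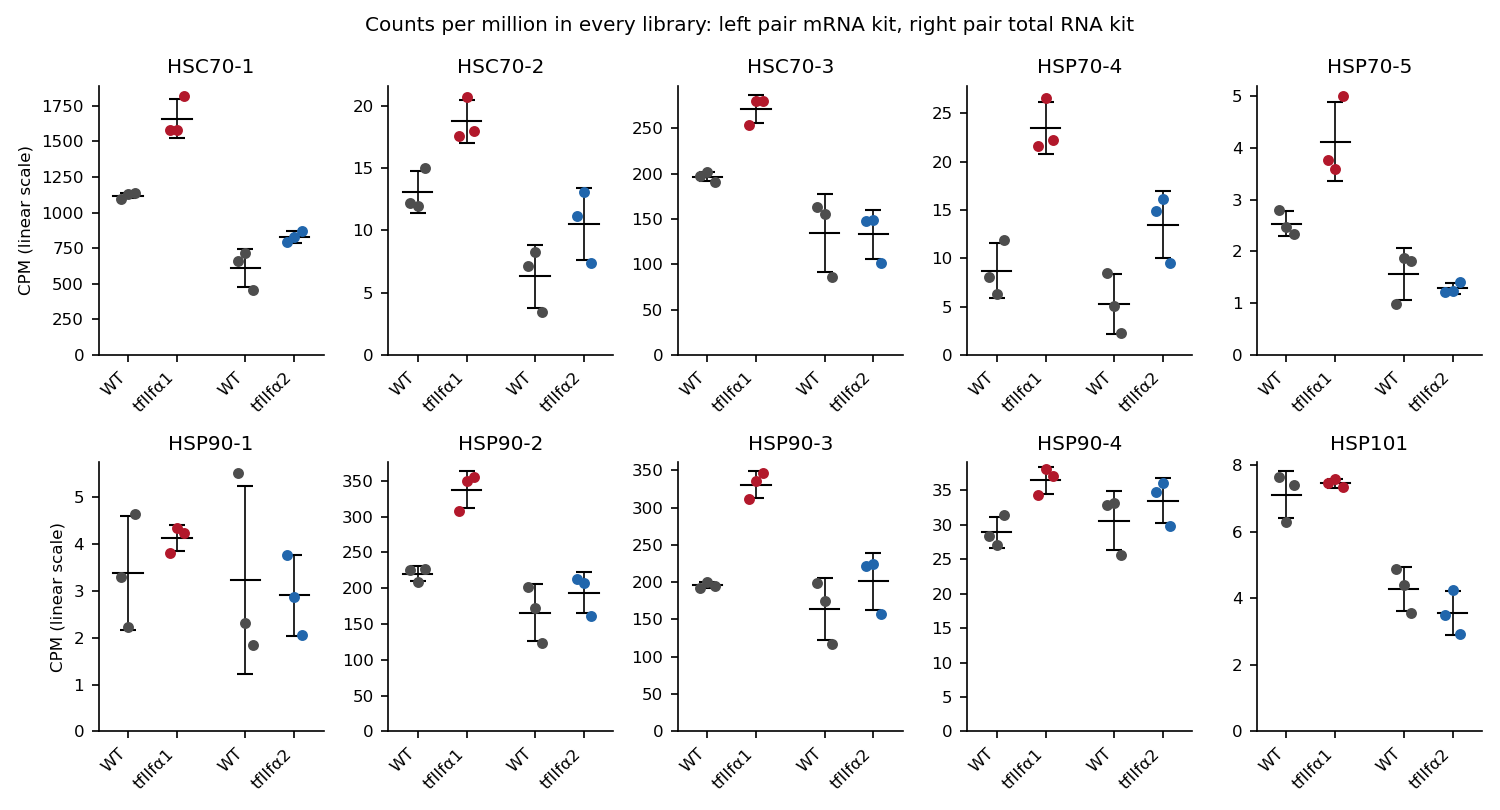
CPM of each chaperone gene in every library on linear axes that start at 0, with points for libraries, horizontal lines for group means and bars for ± 1 SD (n = 3). In the left pair of each panel tfIIfα1 lies clear of its wild type for 8 genes, and in the right pair tfIIfα2 does so for HSC70-1 and HSP70-4.

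Among the HSP90 genes, HSP90-3 had 192, 200 and 195 CPM in the wild type and 311, 335 and 346 in tfIIfα1. The groups lay far apart relative to their spread, with a log2 fold change of 0.76 ± 0.06 (adjusted p = 2.76e-07). HSP90-2 had 226, 209 and 227 CPM against 307, 350 and 355, also without overlap (0.61 ± 0.07, adjusted p = 6.65e-06). HSP90-4 had 28.3, 27.1 and 31.4 CPM against 34.3, 38.0 and 37.1, a smaller rise (0.33 ± 0.07, adjusted p = 0.00211). Summed over the 4 HSP90 genes, CPM ran from 438 to 457 in the wild type and from 657 to 743 in tfIIfα1. The sum does not depend on how shared reads are split only if each was counted once, which the sources do not say.

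HSP90-1, the heat-inducible HSP90, was at 3.29, 2.22 and 4.65 CPM in the wild type and at 3.81, 4.34 and 4.23 in tfIIfα1. The mutant libraries fell inside the range of the wild type, and the log2 fold change of 0.28 ± 0.20 did not pass (adjusted p = 0.293). Without wild-type replicate 3, the highest of the wild type, it was 0.57 and passed (adjusted p = 0.0268), and without replicate 2, the lowest, it was 0.056 (adjusted p = 0.828). HSP101 was at 7.64, 6.30 and 7.41 CPM against 7.45, 7.60 and 7.33, and the groups overlapped (0.07 ± 0.10, adjusted p = 0.636). HSP101 overlaps AT1G74300 on the opposite strand, whose own log2 fold change was 0.29 ± 0.14 (adjusted p = 0.124).

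The 4 heat-inducible genes thus did not move alike in tfIIfα1. Both HSP70 genes among them passed, and HSP90-1 and HSP101 did not, with a median log2 fold change of 0.49 over the 4. Each of the 6 constitutive genes passed, with a median of 0.55. Genes with and without the longer heat shock element within 500 bases before the start codon were found on both sides of the threshold. Without a match, HSP90-3 and HSP90-2 had log2 fold changes of 0.76 and 0.61, and HSP101 had 0.07. With a match, HSP70-4 had 1.43 and HSP90-1 had 0.28. A link between the element and the fold change was not tested. With tfIIfα1 replicates a and b left out, HSP70-5 (log2 fold change 0.57) and HSP90-4 (0.25) no longer passed. That fit assumes that the single mutant library left varies like the wild type.

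**Figure D3:**
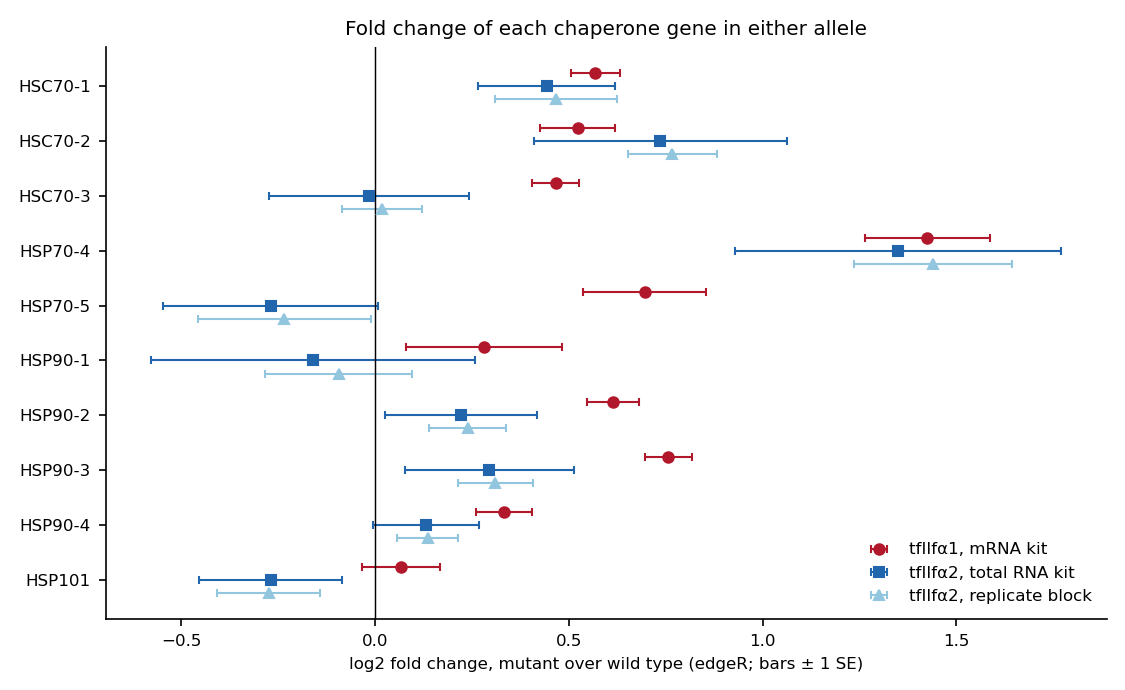
Log2 fold change of each chaperone gene, mutant over wild type, with bars of ± 1 SE, for tfIIfα1 in the mRNA kit, tfIIfα2 in the total RNA kit and tfIIfα2 with the replicate number as a block. HSP70-4 lies furthest right in all 3 fits, at 1.43, 1.35 and 1.44, and HSC70-3 lies at 0.47 in tfIIfα1 and near 0 in tfIIfα2.

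In tfIIfα2, none of the 10 chaperone genes passed the edgeR test against the wild type of the total RNA kit. Of all 18863 tested genes 3.2% did. An unadjusted p under 0.05 was found for 2 of the 10, HSP70-4 and HSC70-1, and for 4169 of all 18863. Of the 10 genes HSP70-4 and HSC70-2 had the highest log2 fold changes, at 1.35 and 0.74. In 2 genes, HSC70-1 and HSP70-4, the mutant libraries lay above all wild-type libraries, as in 13.1% of all tested genes. The median log2 fold change was 0.18 for the 10 genes and -0.00039 for all tested genes. Counts per library were lowest for HSP70-5 (39 to 64) and HSP90-1 (60 to 220).

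The libraries with the same number in their titles deviated together from their group means in this kit, so the number was also fitted as a block. There, 2 of the 10 genes rose and none fell, where 9.56% of tested genes rose, 9.18% fell and 18.7% passed in either direction. These were HSP70-4 (1.44 ± 0.20, adjusted p = 0.00347) and HSC70-2 (0.77 ± 0.11, adjusted p = 0.00405). The median of the 10 genes was 0.19.

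HSP70-4 was at 8.49, 5.05 and 2.25 CPM in the wild type and at 14.9, 16.1 and 9.51 in tfIIfα2. All mutant libraries were above all wild-type libraries, and the third library was the lowest in both groups. Without the block the log2 fold change was 1.35 ± 0.42 (adjusted p = 0.118), or 2.55-fold. Within the replicate numbers the log2 ratios were 0.81, 1.67 and 2.08.

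HSC70-2 was at 7.18, 8.28 and 3.48 CPM in the wild type and at 11.1, 13.1 and 7.39 in tfIIfα2. The groups overlapped, since mutant library 3 lay below wild-type library 2, but each mutant library was above the wild-type library of its number, with log2 ratios of 0.63, 0.66 and 1.09. Without the block the log2 fold change was 0.74 ± 0.33 (adjusted p = 0.236). HSC70-1 was at 661, 714 and 456 CPM against 790, 829 and 871, and here wild-type library 3 was low while mutant library 3 was the highest. Its log2 fold change was 0.44 ± 0.18 (adjusted p = 0.196, and 0.0709 with the block).

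**Figure D4:**
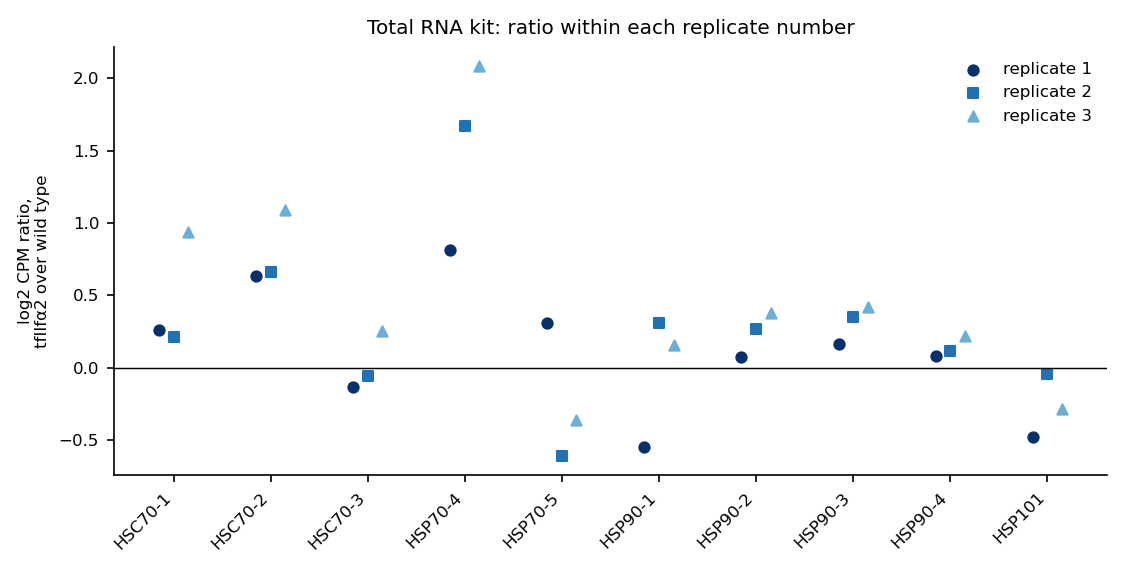
Log2 ratio of CPM, tfIIfα2 over wild type, for each chaperone gene within each replicate number of the total RNA kit. All 3 ratios are above 0 for HSC70-1, HSC70-2, HSP70-4, HSP90-2, HSP90-3 and HSP90-4, and all 3 are below 0 for HSP101.

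The abundant HSP90 genes showed small positive differences that did not pass in either fit. HSP90-3 was at 198, 175 and 118 CPM in the wild type and at 222, 224 and 157 in tfIIfα2, with overlapping groups (0.30 ± 0.22, adjusted p = 0.472, and 0.0565 with the block). HSP90-2 was at 201, 173 and 124 CPM against 212, 208 and 160 (0.22 ± 0.20, adjusted p = 0.55). HSP90-4 was at 32.9, 33.2 and 25.6 CPM against 34.7, 36.0 and 29.8 (0.13 ± 0.14, adjusted p = 0.613). Library 3 was the lowest of both groups for each of them.

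HSC70-3 was at 163, 155 and 85.6 CPM in the wild type and at 148, 149 and 102 in tfIIfα2, and the groups overlapped throughout (-0.02 ± 0.26, adjusted p = 0.981). HSP70-5 was at 0.98, 1.88 and 1.81 CPM against 1.22, 1.23 and 1.41 (-0.27 ± 0.28, adjusted p = 0.612). HSP90-1 was at 5.53, 2.32 and 1.85 CPM against 3.78, 2.87 and 2.06 (-0.16 ± 0.42, adjusted p = 0.863). Wild-type library 1 was the lowest for HSP70-5 and the highest for HSP90-1. HSP101 was at 4.87, 4.41 and 3.57 CPM against 3.49, 4.26 and 2.92, lower within each number but with overlapping groups (-0.27 ± 0.18, adjusted p = 0.434).

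Root markers were measured beside these values, because the labelled tissue is aerial. In the total RNA kit the 4 tested of 5 listed had positive log2 fold changes in tfIIfα2 (median 0.73), and none passed without the block and 3 with it. Of all tested genes 3.2% passed without the block, 18.7% with it and 38.4% in the mRNA kit. The summed CPM of the list, most of it from BGLU23, was 587 to 868 in the wild type and 862 to 1119 in tfIIfα2, no listed marker was at 0 in group mean, and TIP2-3 was at 0.05 and 0.11 CPM. In the mRNA kit the sums were 1350 to 1545 and 1471 to 1616, and none of 4 passed. The 4 leaf photosynthesis markers summed to 63770 to 70800 CPM and to 69880 to 70130 in the mRNA groups, and to 9673 to 17190 and 10110 to 17640 in the total RNA groups. In tfIIfα1 2 of these 4 passed, RBCS-1B higher (0.40, adjusted p = 0.000294) and LHCB1.3 lower (-0.16, adjusted p = 0.0487), and in tfIIfα2 none did, without or with the block. The part of tissue composition in the chaperone values was not tested, and in bulk tissue fewer cells of a type and less RNA per cell cannot be told apart.

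The difference between the alleles was tested as an interaction over the 12 libraries, with each allele set against its own wild type. None of the 10 genes passed, where 0.772% of 20602 genes did. Of those 159 genes, 123 lie in the chromosome 4 segment AT4G12640 to AT4G15550. An unadjusted p under 0.05 was found for 1823 of all 20602 genes and for 1 of the 10. That gene was HSP70-5, with log2 fold changes of 0.70 in tfIIfα1 and -0.27 in tfIIfα2 and a difference of -0.97 ± 0.32 (edgeR adjusted p = 0.344). The difference was negative, that is smaller in tfIIfα2, for 9 of 10 genes, with a median of -0.37. Over all tested genes it was positive for 10040 of 20602, with a median of -0.0079. The 10 genes were measured in the same libraries, and their common sign was not tested. The difference was -0.47 ± 0.24 for HSP90-3 (adjusted p = 0.62), -0.49 ± 0.29 for HSC70-3 (adjusted p = 0.671) and -0.40 ± 0.22 for HSP90-2 (adjusted p = 0.648). For HSP70-4 it was -0.09 ± 0.49 (adjusted p = 0.987), an error that leaves room for a sizeable difference either way. Allele, kit and wild-type line change together here and cannot be told apart.

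Partner proteins of HSP70 and HSP90 were followed as a list of 20 cochaperones and exchange factors. In tfIIfα1, 10 of 20 rose and none fell, where 18.7% of all tested genes rose and 19.6% fell. The median log2 fold change of the list was 0.19. AT4G02450, annotated in the deposited table as an HSP20-like chaperone, went from a mean of 105 to 156 CPM (0.57 ± 0.07, adjusted p = 1.90e-05). HSP70-15, of the HSP110 type that exchanges nucleotide on HSP70, went from 135 to 185 CPM (0.46 ± 0.06, adjusted p = 2.10e-05). FKBP62, a prolyl isomerase that binds HSP90, went from 62.1 to 86.9 CPM (0.48 ± 0.07, adjusted p = 9.86e-05), and SGT1A, an HSP90 partner in immune receptor function, from 21.0 to 28.4 CPM (0.44 ± 0.07, adjusted p = 0.00019). SGT1A was at 10.7, 10.7 and 9.41 CPM in the wild type of the total RNA kit and at 8.51, 9.09 and 8.58 in tfIIfα2, lower in all 3 libraries (-0.23 ± 0.10, adjusted p = 0.236). The difference between the alleles passed for this gene (-0.68 ± 0.11, adjusted p = 0.012) and for no other gene of the 6 lists, 58 of which were tested. It did not pass at a threshold of 0.01, and the other settings were not run for list genes in this test.

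The HSP70, HSP90 and ClpB paralogs of plastids, mitochondria and the endoplasmic reticulum also rose in tfIIfα1, in 10 of 12 genes with none lower and a median of 0.34. Of all tested genes 18.7% rose and 19.6% fell. Plastid HSP70-7 went from 346 to 599 CPM (0.79 ± 0.07, adjusted p = 8.31e-07) and its sister HSP70-6 from 369 to 516 CPM (0.49 ± 0.06, adjusted p = 2.55e-05). CLPB3, the plastid disaggregase, went from 60.1 to 94.8 CPM (0.66 ± 0.07, adjusted p = 3.29e-06), and mitochondrial HSP70-9 from 93.2 to 133 CPM (0.51 ± 0.07, adjusted p = 4.48e-05). This list lost calls when tfIIfα1 replicate a was left out, with 6 genes passing, and in 1 fit over the 12 libraries, with 4. All genes called in either direction numbered 6848 of 20622 and 4329 of 20602 in those fits. At a threshold of 0.01, 6 genes of the list passed. It also lost calls when a and b were both left out. The remaining cytosolic ClpB gene, CLPB2, was at 0 to 0.01 CPM in group mean and was not tested.

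Of 16 tested heat shock factors 1 rose and 5 fell in tfIIfα1, with a median of -0.02, where 18.7% of all tested genes rose and 19.6% fell. The difference of a list's share from that of all genes was not tested. HSFA3 went from 3.203 to 1.402 CPM (-1.19 ± 0.16, adjusted p = 5.74e-05), HSFA8 from 4.53 to 2.44 (-0.89 ± 0.17, adjusted p = 0.000833) and HSFA1B, one of the master activators of the heat response, from 11.7 to 9.11 (-0.36 ± 0.09, adjusted p = 0.00689). HSFA5 went from 12.7 to 6.51 CPM (-0.97 ± 0.08, adjusted p = 7.30e-07), but it lies in a chromosome 4 segment, AT4G12640 to AT4G15550, where the median over 271 tested genes was -0.997, against -0.03 over 240 in tfIIfα2. Without it 1 rose and 4 fell of 15. The others called were HSFB2B (-0.43, adjusted p = 0.0185) and HSFA1E (0.58, adjusted p = 0.0339), the rise, which was lost without any 1 of the wild-type libraries or tfIIfα1 replicate 1, without a and b together, in 1 fit over 12 libraries and at a threshold of 0.01.

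Of 3 other regulators, MBF1C, a coactivator of the heat response, rose from 3.65 to 6.11 CPM (0.74 ± 0.13, adjusted p = 0.000486) and HSBP, which binds and restrains heat shock factors, from 66.9 to 83.0 (0.31 ± 0.06, adjusted p = 0.00071). DREB2A, a factor shared by drought and heat responses, fell from 1.98 to 1.19 CPM (-0.73 ± 0.22, adjusted p = 0.0164), a call lost without wild-type replicate 1 or 2, without tfIIfα1 replicate a, without a and b, in 1 fit over 12 libraries and at 0.01. Of 14 small heat shock proteins 7 could be tested, and 1 rose and 2 fell, beside 18.7% and 19.6% of all tested genes. The number that fell was 1 without wild-type replicate 1 or 2, without tfIIfα1 replicate b, without a and b, and at 0.01. HSP23.5, a mitochondrial member, rose from 1.25 to 5.44 CPM (2.12 ± 0.22, adjusted p = 3.30e-06). HSP17.6B fell from 2.92 to 1.45 CPM (-1.01 ± 0.21, adjusted p = 0.00139) and HSP15.7, a peroxisomal member, from 1.09 to 0.57 (-0.93 ± 0.29, adjusted p = 0.0199). Over the 6 lists, 24 genes rose and 8 fell of 58 tested, where 18.7% of all tested genes rose and 19.6% fell. The median over the 6 lists was 0.12.

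**Figure D5:**
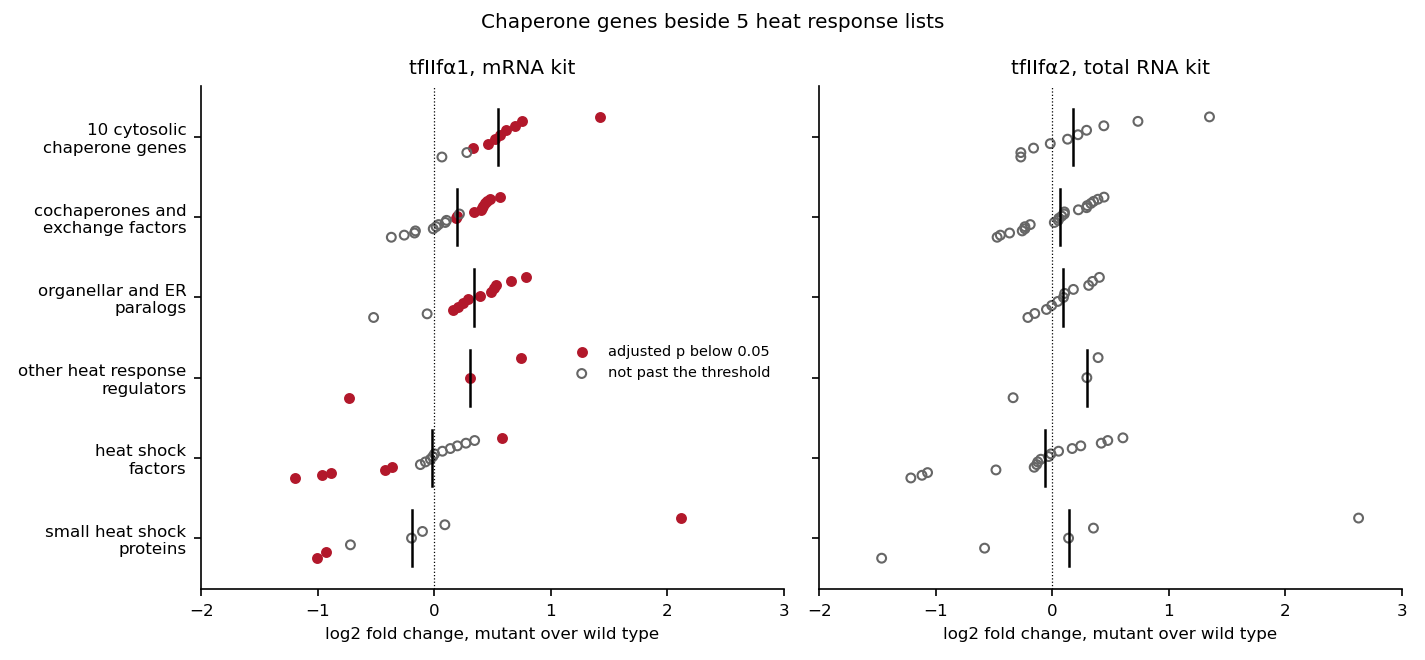
Log2 fold change, mutant over wild type, of the 10 chaperone genes and of the tested genes of 5 heat response lists in either allele, with filled points for an adjusted p below 0.05 and black bars for medians. In tfIIfα1 the cochaperone and organellar lists have filled points only to the right of 0, and the heat shock factors have 5 of 6 filled points to the left.

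In tfIIfα2 no gene of the 6 lists passed without the block, of 55 tested, where 3.2% of all tested genes did. An unadjusted p under 0.05 was found for 12 of these 55 genes and for 4169 of all 18863. With the block 11 rose and 2 fell, where 9.56% of all tested genes rose and 9.18% fell. HSP23.5 went from 0.42 to 2.72 CPM (2.70 with the block, adjusted p = 0.00162), and HSBP from 21.5 to 28.2 (0.40, adjusted p = 0.0126). HSFA3 went from 1.25 to 0.60 CPM (-1.07, adjusted p = 0.0144) and HSFA8 from 1.99 to 0.85 (-1.18, adjusted p = 0.023). The other 9 were 6 cochaperones, among them HSP70-15 (0.40, adjusted p = 0.0168) and FKBP62 (0.36, adjusted p = 0.0224), and 3 organellar paralogs, among them CLPB3 (0.42, adjusted p = 0.0204).

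The genes whose pattern over the 12 libraries was most like the mean of the 4 heat-inducible chaperones were sought among 15948 genes. These were genes other than the members, tested in both kits, with a mean of at least 1 CPM in each kit. Likeness was the root mean square difference of log2(CPM + 0.5), each taken as the deviation from the wild-type mean of its kit. The nearest were RH51 (0.092), AT1G29320 (0.092), RH28 (0.094), LOS1 (0.103) and RPS3AA (0.105), annotated as nucleotide hydrolase, WD40 repeat protein, RNA helicase, elongation factor type protein and ribosomal protein. HSP90-2 was nearer still, at 0.080. Each of the 4 genes was itself further from their mean than many candidates. Those nearer numbered 15093 for HSP70-4 (0.76), 7056 for HSP70-5 (0.40), 5768 for HSP101 (0.37) and 2605 for HSP90-1 (0.29). The mean is thus a pattern that none of the 4 genes follows closely. The mean deviation was 0.52 to 0.65 in tfIIfα1 and -0.0014 to 0.36 in tfIIfα2, within the range of -0.37 to 0.34 of the wild-type total RNA libraries for 1 of 3.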

How the data were processed

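Analysis started from the raw counts that the authors deposited for 12 libraries. The submitters' processing notes list TAIR10 as build, Bowtie2 2.2.9, FastQC 0.11.5 and edgeR 3.20.1. The counting tool and its strand setting are not given in the sources used here. The authors also deposited group means, a score rounded to whole numbers, used only to check that the tfIIfα1 mean is a weighted sum of its 3 columns (within 0.0714% over the 5666 genes with a mean of at least 1000). A further 6 count columns of no sample and 18 normalized columns were not used.

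Mutant and wild-type libraries of a kit were fitted together (R 4.3.3, edgeR 4.0.16) after filterByExpr, with TMM sizes, the quasi-likelihood test and Benjamini-Hochberg adjustment over all tested genes at 0.05. SE is the size of the log2 fold change divided by the root of its F statistic. CPM and RPKM use TMM sizes over all counts, plastid counts included. Alternatives used DESeq2 1.42.0 and limma-voom 3.58.1, among others. In the total RNA kit same-numbered libraries correlated with r = 0.69, 0.258 and 0.581 in their deviations over genes, each best with its own number, and the numbers come from the titles.

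Members, lists and tests were chosen with earlier results of these data known. Named genes were the 10 members, RAP74, up to 4 genes of each list past the threshold with the smallest p, and the 5 nearest patterns. AT4G12640 to AT4G15550, HSFA1E, HSFB2B, RBCS-1B, LHCB1.3 and overlapping genes were named after their values were seen. Protein identity was not computed, and coding sequences were compared instead. The window of 500 bases was chosen after that of 300 had been seen.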

Additional observations from a re-analysis of the deposited data

Results flagged for a closer look

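SGT1A, an HSP90 partner among the cochaperones, differed between the alleles in the interaction test. Its log2 fold change was 0.44 in tfIIfα1 and -0.23 in tfIIfα2, a difference of -0.681 ± 0.11 (SE, edgeR quasi-likelihood test, adjusted p = 0.012). The difference did not pass at a threshold of 0.01. Whether it holds without single libraries, or without tfIIfα1 replicates a and b, was not tested. Allele, kit and wild-type line change together and cannot be told apart.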

How the results depend on the processing

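Of 500 log2 fold changes of single chaperone genes under alternative settings, 474 kept their direction and side of the threshold. The setting with a threshold of 0.01 reuses the main fit, so its directions were fixed. In tfIIfα1, the only comparison with members called in the main fit, 144 of 150 did so and 4 lost their call. In tfIIfα1 8 genes rose under 12 of the 15 alternatives, 9 without wild-type replicate 3, and 6 in 1 fit over 12 libraries (leave-one-out range 8 to 9). In that 1 fit 4329 of all 20602 genes were called in either direction. Fewer members also rose without replicates a and b together, which leaves 1 mutant library. In tfIIfα2 0 became 1 with DESeq2 or 1 fit over 12 libraries (HSP70-4, adjusted p = 0.0152 and 0.0279) and 2 with the replicate block, which changed no other member's call. The sign turned only in uncalled values. For HSC70-3 in tfIIfα2 it was 0.020 with limma-voom and 0.018 with the block, with a leave-one-out range of -0.26 to 0.15. Those ranges were -0.44 to 0.49 for HSP90-1 in tfIIfα2 and -0.015 to 0.12 for HSP101 in tfIIfα1. For the difference between alleles they were -0.44 to 0.46 for HSP70-4 (0.0041 with limma-voom, 0.026 without a and b), -0.75 to 0.21 for HSP90-1, -0.30 to 0.018 for HSC70-1 and -0.076 to 0.46 for HSC70-2.

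Over the heat response lists, higher genes in tfIIfα1 went from 24 to 15 in 1 fit over 12 libraries, and lower genes from 8 to 4 without a and b, to 5 at a threshold of 0.01 and to 5 to 8 in leave-one-out. In tfIIfα2 higher genes numbered 1 without a filter, 2 with DESeq2, 6 in 1 fit over 12 libraries, 11 with the replicate block and 0 to 1 in leave-one-out, and lower genes 1, 4 and 2 with DESeq2, 1 fit and the block. All genes called numbered 7820 in tfIIfα1, and 4329 in 1 fit, 4838 without a and b and 5137 at 0.01. In tfIIfα2 they numbered 603, and 1345 with DESeq2, 2926 in 1 fit, 3535 with the block, 28 at 0.01 and 4 to 169 in leave-one-out, where the higher share went from 46.3% to 49.1% to 75%. For the difference they numbered 159, and 333 with DESeq2 (76.0% higher, against 92.5%), 92 at 0.01 and 12 without a and b. Of the 159, 123 lay in the chromosome 4 segment AT4G12640 to AT4G15550, all of them higher. Without length, 10 of 40 places in the order of levels changed. The longer heat shock element was found in 5 members in place of 1 in the longer window. The cause was not tested. A replicate block was not run for tfIIfα1 or the difference, because the numbers of a and b are ambiguous.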
